A study of Homo sapiens with 6 samples.

Results

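The serine synthesis and folate one-carbon enzymes were followed in HGC-27 cells, an established line of undifferentiated human gastric carcinoma, after knockdown of ACAT2. The group was chosen by name, with earlier results of these data known. It holds 9 genes of the 58735 in the deposited table, namely PHGDH, PSAT1, PSPH, SHMT1, SHMT2, MTHFD1, MTHFD2, MTHFD1L and ALDH1L2. RNA-sequencing had been performed on 3 libraries of shNC cells and 3 libraries of shACAT2 cells. Cells of both groups received the pSIH-H1-Puro vector for 24 h and then 7 days of puromycin. The shNC cells (genotype label WT) carried pSIH-H1-Puro-shNC, for which the study's methods describe a vector with no insert, and the shACAT2 cells carried a hairpin against ACAT2 in the same backbone. Which of the study's ACAT2 hairpins was sequenced is not given by the labels. Both groups are therefore pools of drug-selected cells of 1 line, and a second hairpin was not analysed here. The comparison asks how transcript levels in these cells differed with ACAT2 knockdown.

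Serine is made from a glycolytic intermediate in a short chain of enzymes, in which PHGDH oxidises 3-phosphoglycerate, PSAT1 transfers an amino group from glutamate and PSPH removes the phosphate. Serine then gives a carbon unit to tetrahydrofolate through SHMT1 in the cytosol or SHMT2 in mitochondria, and the MTHFD enzymes and ALDH1L2 interconvert or oxidise the folate-bound unit, which feeds purine, thymidylate and methionine synthesis. Many of these genes are known targets of the transcription factor ATF4, and proliferating tumour cells commonly express the mitochondrial arm strongly. ACAT2 itself is the cytosolic acetyl-CoA acetyltransferase, which joins acetyl groups into acetoacetyl-CoA for sterol synthesis.

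Transcript levels were given as FPKM, fragments per kilobase of exon corrected for the size of the library. For the 9 enzymes the exon length was the union of the annotated exons, from 2188 bases (PSAT1) to 9377 bases (MTHFD1). A union may exceed the transcript present in the cells, so levels, ratios and shares set between genes depend on these lengths. For any 1 gene the length was the same in both groups. Each library had from 14086416 to 16067486 fragments on genes. The test was limma on log2(FPKM + 1) for 13832 genes whose mean reached 1 FPKM in shNC or in shACAT2, and a gene was called at a Benjamini-Hochberg adjusted p below 0.05. All 9 enzymes passed this filter in both groups. Fold changes below are on the log2(FPKM + 1) scale, shACAT2 minus shNC, which understates changes at low levels. ACAT2 measured 14.2, 11.7 and 12.7 FPKM in shNC-1, shNC-2 and shNC-3 and 6.19, 5.46 and 6.05 FPKM in shACAT2-1, shACAT2-2 and shACAT2-3 (log2 fold change −1.01, limma adjusted p = 0.00594, or 0.0512 without shNC-3). TCP1, on the opposite strand, overlaps the ACAT2 exons by 397 bases and measured 78.3 FPKM on average, and the strand setting of the counting is not given in the sources used here. Within a group, shNC-2 and shNC-3 differed by a chi-square per gene of 1.73, where the other pairs differed by 12.1 to 46.0, so p-values measure the spread between these libraries, which may in part be technical. The library shACAT2-3 stood apart by 7477 genes detected nowhere else, where each of the others had 416 to 657. Its rate on autosomal genes silent in the other libraries was 0.778 fragments per kilobase, a rate that amounts to between 0.0156% (PSAT1) and 0.696% (SHMT1) of an enzyme's fragments there.

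PSAT1 was the single enzyme of the group to pass the test, and it rose 2.20-fold in shACAT2 cells. PHGDH and PSPH, the neighbouring steps of the serine chain, had lower mean levels in shACAT2 cells, without passing the adjusted threshold. Of the 9 enzymes, 1 was called, against a background of 5.10% of all genes tested, and the median log2 fold change of the group was −0.12, against 0.016 over all genes tested. By the unadjusted limma p below 0.05, 2 of 9 passed (PSAT1 and PHGDH), where 23.5% of all genes did. In bulk RNA, a different share of cells cannot be told apart from a different level per cell.

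The promoters of PSAT1, which was called, and of PHGDH, the step before it, which was not, are shown. This pair was chosen with its values known, and the part of the promoters in these levels was not tested. RefSeq windows on GRCh38.p14, running from 250 bases before to 50 bases after a start site, were found for 6 of the 9 enzymes. PSPH, SHMT2 and ALDH1L2 had none. The PSAT1 window is chr9:78296875-78297174 and the PHGDH window is chr1:119711684-119711983, both on the plus strand and printed 5′ to 3′, with matches to CCAAT or its reverse complement ATTGG in capitals.
PSAT1: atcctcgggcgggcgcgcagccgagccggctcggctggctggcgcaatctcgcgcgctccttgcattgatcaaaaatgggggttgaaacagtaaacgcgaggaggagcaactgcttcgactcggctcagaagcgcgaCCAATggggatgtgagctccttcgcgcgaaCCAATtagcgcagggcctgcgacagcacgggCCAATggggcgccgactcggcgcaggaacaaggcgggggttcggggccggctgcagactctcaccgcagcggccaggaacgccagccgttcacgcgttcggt
PHGDH: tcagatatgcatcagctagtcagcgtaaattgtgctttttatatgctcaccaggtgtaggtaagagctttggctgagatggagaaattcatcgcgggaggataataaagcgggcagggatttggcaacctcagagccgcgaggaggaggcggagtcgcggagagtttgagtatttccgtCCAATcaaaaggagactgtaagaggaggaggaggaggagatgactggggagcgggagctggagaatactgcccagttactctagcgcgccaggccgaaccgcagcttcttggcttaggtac
The PSAT1 window held 3 matches to CCAAT, which began 113, 83 and 52 bases before the start site, and the PHGDH window held 1, which began 71 bases before it. The PHGDH start site lies inside the gene's annotated span, which begins further upstream in the annotation of the deposited table. Over 35116 RefSeq windows of the same 300 bases, 34.6% held at least 1 match and 3.26% held 3 or more. Neither window held CACGTG, the E-box palindrome, or TGATGNAA, the letters of many ATF4 and C/EBP composite sites, which were present in 7.26% and 3.62% of all windows on either strand. The MTHFD2 and SHMT1 windows each held 2 CCAAT matches, and that of MTHFD1 held 2 with 1 CACGTG. Of the 4 windows of MTHFD1L, the 3 that overlap one another shared a CCAAT match, the E-box letters and TGATGCAA, which fits the TGATGNAA pattern. These matches are letters in a window and no readout of binding.

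PSAT1, phosphoserine aminotransferase (ENSG00000135069, chr9:78297143-78330093, plus strand of hg38), had the highest FPKM of the 9 enzymes in every library and the shortest exon length, 2188 bases. It measured 153.9, 141.2 and 140.7 FPKM in the shNC libraries and 334.3, 290.3 and 332.3 FPKM in the shACAT2 libraries, each in the order of replicates 1 to 3 as for all genes below, from 5010 to 11104 fragments. All 3 shACAT2 libraries lay far above all 3 shNC libraries, and the gap between the groups was wider than the range within either. The mean rose from 145.3 ± 7.47 FPKM (SD, n = 3) to 319.0 ± 24.8 FPKM (SD, n = 3). This was a log2 fold change of 1.13 (standard error 0.11, 95% interval 0.86 to 1.39, limma adjusted p = 0.00543). An exact permutation test of the FPKM values, two-sided, gave p = 0.1, the smallest that 3 against 3 allows. By unadjusted limma p it ranked 40 among all genes with a higher estimate in shACAT2 cells. The log2 fold change stayed between 1.08 and 1.19 over 15 other settings. Its limma adjusted p was 0.056 without shNC-3 and 0.0505 when the mean of shNC-2 and shNC-3 stood for both. Those fits called 63 and 83 of all genes tested, against 706 in the main fit. The PSAT1 call, though not the size of its change, was lost there. Its exons share no bases with another annotated gene.

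PHGDH, phosphoglycerate dehydrogenase and the entry step of the chain (ENSG00000092621, chr1:119648411-119744226, plus strand), measured 70.7, 59.0 and 58.6 FPKM in the shNC libraries and 57.0, 41.0 and 35.0 FPKM in the shACAT2 libraries. The groups did not overlap, but shACAT2-1 lay just under the lowest shNC library while shACAT2-3 lay well under it. The means were 62.8 ± 6.86 and 44.3 ± 11.4 FPKM (SD, n = 3 each), a ratio of 0.706. On the log2 scale the change was −0.52 (standard error 0.19, 95% interval −0.97 to −0.07) and was not called (limma adjusted p = 0.163). With the replicate number as a block the limma adjusted p was 0.0454, in a fit that called 12.5% of all genes tested and 2 of the 9 enzymes. Without shACAT2-1, the highest shACAT2 library for this gene, the log2 fold change was −0.71 with a limma adjusted p of 0.0352, in a fit that called 6.19% of genes. The estimate for PHGDH was below 0 in all 15 other settings, between −0.71 and −0.36.

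PSPH, phosphoserine phosphatase, ends the chain (ENSG00000146733, chr7:56011051-56051604, minus strand). Its levels were 26.6, 23.6 and 22.3 FPKM in the shNC libraries and 22.4, 18.6 and 19.5 FPKM in the shACAT2 libraries. The highest shACAT2 library lay within the shNC range, so the groups overlapped. PSPH had a log2 fold change of −0.25 (standard error 0.12, 95% interval −0.53 to 0.02, limma adjusted p = 0.249). A pseudogene on the same chromosome, PSPHP1, is annotated with 261 bases and measured 15.5, 14.7 and 12.9 FPKM in shNC cells and 26.0, 17.1 and 19.9 FPKM in shACAT2 cells. These values rest on 58 to 103 fragments, against 808 to 1125 for PSPH, and the 3 shACAT2 values of PSPHP1 lay above the 3 shNC values, with a log2 fold change of 0.50 (limma adjusted p = 0.128). Reads shared by PSPH and PSPHP1 could have been split between them in the counting, which makes both values uncertain. The other 13 copies of the 9 enzymes listed in the table stayed at or below 0.411 FPKM in every library.

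**Figure D1:**
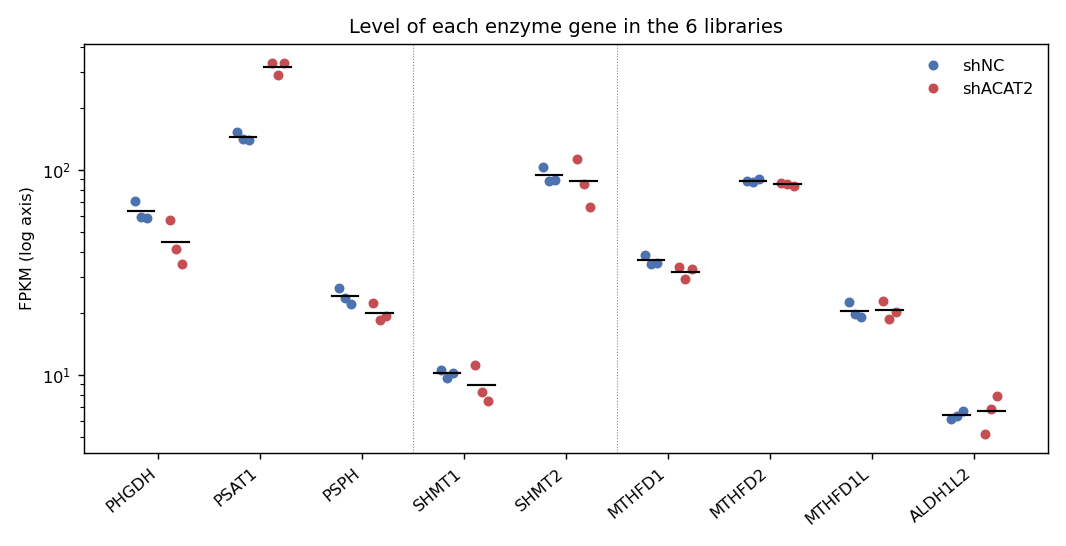
FPKM of each of the 9 enzymes in the 6 libraries, on a log axis, with each point a library, each bar a group mean and dotted lines between serine synthesis, serine hydroxymethyltransferases and the later folate enzymes. The 3 shACAT2 points of PSAT1, from 290.3 to 334.3 FPKM, stand above its 3 shNC points, while PHGDH is displaced downwards and the shACAT2 points of PHGDH, SHMT1, SHMT2 and ALDH1L2 are spread more widely than their shNC points.

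Set against each other within a library, the steps of serine synthesis took different proportions in the 2 groups. The size of each ratio and share depends on the exon lengths used, which were the same in both groups. The ratio of PSAT1 to PHGDH, in FPKM, was 2.18, 2.39 and 2.40 in shNC cells and 5.86, 7.09 and 9.50 in shACAT2 cells. The ratio of PSAT1 to PSPH was 5.78, 5.97 and 6.30 in shNC cells and 14.9, 15.6 and 17.0 in shACAT2 cells. Both ratios were separated without overlap, whereas that of PHGDH to PSPH overlapped, with means of 2.59 ± 0.085 and 2.18 ± 0.377 (SD, n = 3 each). Each separated ratio had an exact permutation p of 0.1, the floor of the design, or 0.267 after Benjamini-Hochberg adjustment over 8 ratios. PSAT1 made up 29.5%, 30.0% and 29.7% of the summed FPKM of the 9 enzymes in shNC cells and 48.7%, 49.7% and 54.9% in shACAT2 cells. The other 8 together summed to 343.3 ± 21.4 FPKM in shNC and to 306.2 ± 41.2 FPKM in shACAT2 (SD over 3 libraries each), with overlapping values in single libraries.

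The serine hydroxymethyltransferases, which split serine into glycine and a folate-bound carbon, showed no difference beyond their spread. SHMT2, the mitochondrial form (ENSG00000182199, chr12:57229327-57234935, plus strand), measured 103.8, 88.9 and 89.5 FPKM in shNC cells and 113.5, 85.9 and 66.0 FPKM in shACAT2 cells. The shACAT2 libraries thus held both its highest and its lowest value, and the coefficient of variation was 26.9% in shACAT2 against 9.01% in shNC. The log2 fold change was −0.12 (standard error 0.20, 95% interval −0.59 to 0.36, limma adjusted p = 0.770), and it became 0.073 without shACAT2-3. SHMT1, the cytosolic form (ENSG00000176974, chr17:18327860-18363563, minus strand), measured 10.6, 9.70 and 10.2 FPKM in shNC cells and 11.2, 8.26 and 7.45 FPKM in shACAT2 cells. Its groups overlapped in the same manner, with shACAT2-1 highest and shACAT2-3 lowest of all 6 libraries. The log2 fold change was −0.18 (standard error 0.15, 95% interval −0.53 to 0.17, limma adjusted p = 0.506). The mitochondrial form exceeded the cytosolic one in every library, with a mean ratio of 9.23 ± 0.520 in shNC and 9.79 ± 0.824 in shACAT2 (SD, n = 3 each, exact permutation p = 0.3). SHMT1 shares 196 exon bases with SMCR8 on the opposite strand, which measured 9.56 FPKM on average.

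The mitochondrial enzymes that carry the folate unit onwards differed least. MTHFD2, which oxidises methylene-tetrahydrofolate to formyl-tetrahydrofolate in mitochondria (ENSG00000065911, chr2:74198562-74217565, plus strand), measured 88.7, 87.2 and 90.6 FPKM in shNC cells and 86.4, 85.1 and 83.7 FPKM in shACAT2 cells. The shACAT2 values lay below the shNC values by a narrow margin, and the coefficient of variation, at 1.91% in shNC and 1.59% in shACAT2, was lower than for any of the other 8 enzymes. MTHFD2 had a log2 fold change of −0.06 (standard error 0.09, 95% interval −0.28 to 0.16, limma adjusted p = 0.740). MTHFD1L, which releases formate from the mitochondrial unit (ENSG00000120254, chr6:150865549-151101887, plus strand), measured 22.7, 19.9 and 19.2 FPKM in shNC cells and 23.1, 18.7 and 20.3 FPKM in shACAT2 cells. The ranges overlapped fully and the log2 fold change was 0.01 (standard error 0.12, 95% interval −0.28 to 0.29, limma adjusted p = 0.985). ALDH1L2, which oxidises mitochondrial formyl-tetrahydrofolate to carbon dioxide with formation of NADPH (ENSG00000136010, chr12:105019784-105084577, minus strand), had the lowest mean FPKM of the 9 enzymes in both groups. It measured 6.11, 6.33 and 6.68 FPKM in shNC cells and 5.13, 6.86 and 7.94 FPKM in shACAT2 cells, from 663 to 1013 fragments. Here shACAT2-1 was lowest and shACAT2-3 highest, the opposite of the order for PHGDH, SHMT1 and SHMT2, and the log2 fold change was 0.03 (standard error 0.15, 95% interval −0.31 to 0.38, limma adjusted p = 0.909). MTHFD2 shares 27.2% of its exon bases with SLC4A5 on the opposite strand, but SLC4A5 itself was at 0.117 FPKM.

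MTHFD1, the trifunctional cytosolic enzyme that uses formate to rebuild the folate units (ENSG00000100714, chr14:64388031-64463457, plus strand), measured 38.6, 35.0 and 35.2 FPKM in shNC cells and 33.5, 29.4 and 32.8 FPKM in shACAT2 cells. The groups did not overlap, although shACAT2-1 lay close to the lower shNC libraries. MTHFD1 had a log2 fold change of −0.18 (standard error 0.10, 95% interval −0.43 to 0.06) and was not called (limma adjusted p = 0.342). The ratio of MTHFD1L to MTHFD1 was 0.587, 0.569 and 0.544 in shNC cells and 0.690, 0.636 and 0.617 in shACAT2 cells, without overlap (exact permutation p = 0.1, adjusted 0.267), whereas the ratio of MTHFD2 to MTHFD1 overlapped. In all, 4 of the 9 enzymes (PSAT1, PHGDH, MTHFD1 and MTHFD2) had groups that did not overlap, where 30.7% of all genes tested did. For those 4 the exact permutation p was 0.1.

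**Figure D2:**
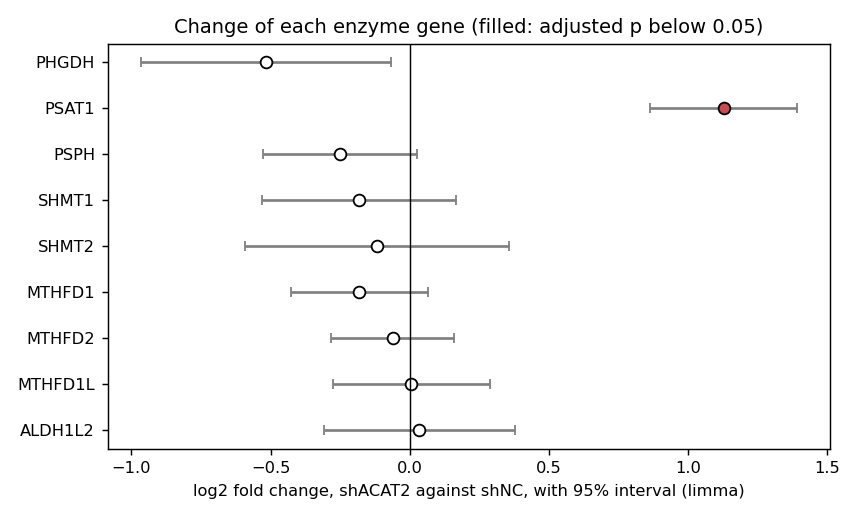
Log2 fold change of each of the 9 enzymes, shACAT2 minus shNC, with bars for the 95% interval from limma and a filled point for an adjusted p below 0.05. The intervals of PSAT1 (0.86 to 1.39) and PHGDH (−0.97 to −0.07) leave out 0, those of the other 7 enzymes include it, and the PSAT1 point alone is filled.

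Apart from PSPH and MTHFD1L, the order of mean FPKM, which depends on the exon lengths used, was the same in both groups. In shNC cells PSAT1 led, followed by SHMT2 and MTHFD2, whose ranges overlapped, then PHGDH, MTHFD1, PSPH and MTHFD1L, of which the last pair overlapped, and then SHMT1 and ALDH1L2. In shACAT2 cells SHMT2 and MTHFD2 again overlapped, as did MTHFD1L with PSPH and, in addition, SHMT1 with ALDH1L2. Within shACAT2, PHGDH, SHMT1 and SHMT2 were each highest in shACAT2-1 and lowest in shACAT2-3, and their coefficients of variation of 25.7%, 22.2% and 26.9% compare with 7.78% for PSAT1. What sets the order of those libraries was not tested.

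**Figure D3:**
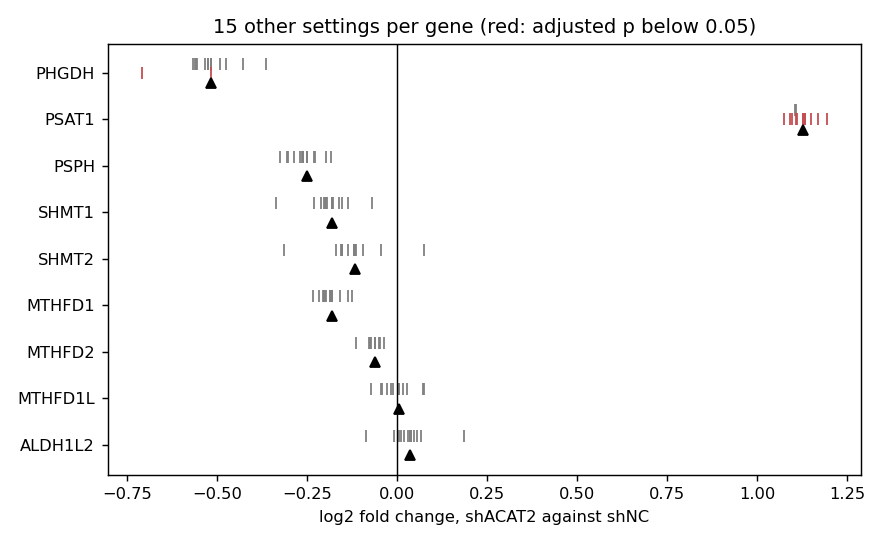
Log2 fold change of each enzyme in the main test (black triangle) and in 15 other settings (ticks, red where the limma adjusted p is below 0.05 and grey, set slightly higher, where it is not). The PSAT1 ticks span 1.08 to 1.19 and 2 of the 15 are grey, the PHGDH ticks span −0.71 to −0.36 and 2 are red, and all ticks of the other 7 enzymes are grey.

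Beyond the 9 enzymes, 88 genes of neighbouring pathways were examined, and 74 passed the filter on level. Of these 74, 3 rose (FOLR1, SFXN3 and VLDLR) and 2 fell (SLC7A5 and ATF5), with a median log2 fold change of −0.06, against 5.10% called and a median of 0.016 over all genes tested. With the replicate block 13 of the 74 were called, in the fit that called 12.5% of all genes tested. The 14 genes under the filter were left untested, and among them were the cytosolic counterpart of ALDH1L2, ALDH1L1, and the glycine cleavage genes GLDC and AMT.

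Among other genes of folate handling, 13 of 17 were tested and 1 rose. FOLR1, a folate receptor of the cell surface, measured 4.04, 3.52 and 4.26 FPKM in shNC cells and 10.2, 7.23 and 6.47 FPKM in shACAT2 cells. The groups were apart, with a log2 fold change of 0.84 (SE 0.16, limma adjusted p = 0.0350). The call was lost when any 1 of the shNC libraries or shACAT2-2 was left out (limma adjusted p up to 0.150). Among the genes that transport, cleave or use serine and glycine, 15 of 19 were tested and 1 rose. SFXN3, of the sideroflexin family of mitochondrial serine carriers, measured 5.11, 4.52 and 4.48 FPKM in shNC cells and 11.2, 9.25 and 8.63 FPKM in shACAT2 cells. Its groups were apart by a log2 fold change of 0.90 (SE 0.12, limma adjusted p = 0.0107, or 0.0732, 0.0798 and 0.0566 without shNC-2, shNC-3 and shACAT2-2), while neither SFXN1, with 0.22, nor SFXN2, with −0.27, was called (limma adjusted p = 0.240 and 0.140). Of the methionine cycle 9 of 15 genes were tested and limma called 0, with 1 at an unadjusted p below 0.05. All 14 genes of purine and thymidylate supply were tested and limma called 0, with 2 at an unadjusted p below 0.05. Over all genes tested, 5.10% were called and 23.5% had an unadjusted limma p below 0.05. With the replicate block the called genes numbered 3 for folate handling, 2 for serine and glycine, 1 for methionine and 2 for purine and thymidylate, again where 12.5% of all genes tested were called.

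The 24 genes of the ATF4 response, to which serine synthesis genes are commonly assigned, were all tested. Limma called 3 of them, of which 1 rose and 2 fell, where 5.10% of all genes tested were called. With the replicate block 5 of the 24 were called, against 12.5% of all genes tested, and 9 of the 24 had an unadjusted limma p below 0.05, against 23.5%. Their median log2 fold change was −0.23, against 0.016 over all genes tested. The part of ATF4 in the rise of PSAT1 was not tested. ATF4 itself measured 219.2, 188.3 and 190.9 FPKM in shNC cells and 180.6, 139.3 and 125.1 FPKM in shACAT2 cells. The groups did not overlap, at a log2 fold change of −0.44 (SE 0.16, limma adjusted p = 0.161, or 0.0490 with the replicate block and 0.0413 without shACAT2-1). SLC7A5, a carrier of large neutral amino acids, had means of 214.8 and 106.8 FPKM (log2 fold change −1.01, limma adjusted p = 0.0151). ATF5, a related transcription factor, had means of 14.7 and 7.24 FPKM (log2 fold change −0.94, limma adjusted p = 0.0265). VLDLR, a lipoprotein receptor, rose from 3.77 to 6.20 FPKM (log2 fold change 0.59, limma adjusted p = 0.0218). Each of these last 3 calls was lost when any 1 of the shNC libraries or shACAT2-2 was left out, with limma adjusted p up to 0.0843, 0.115 and 0.125.

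**Figure D4:**
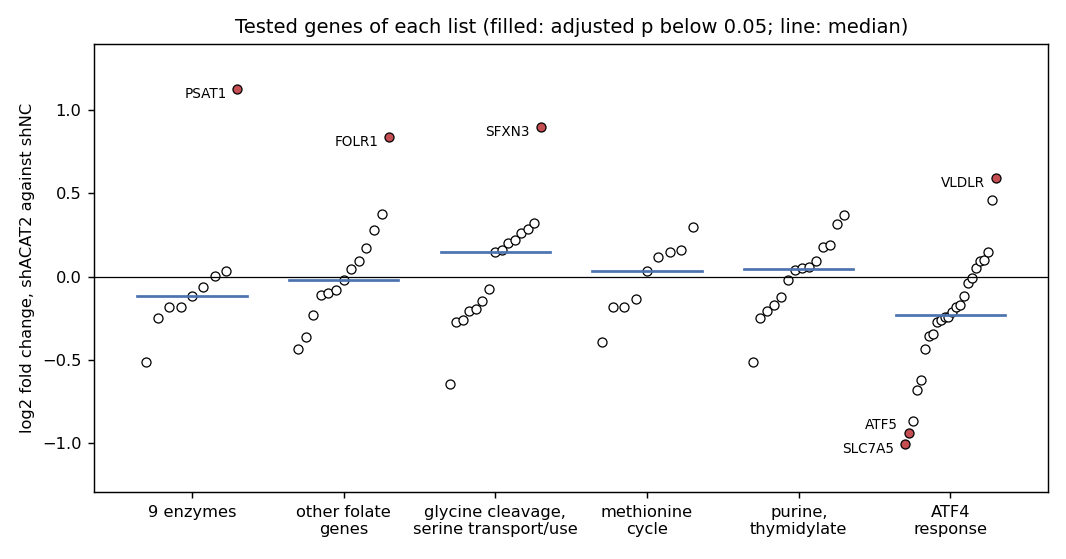
Log2 fold change, shACAT2 minus shNC, of the 9 enzymes and of each tested gene of 5 neighbouring lists, with filled points for a limma adjusted p below 0.05 and a line at each list's median. PSAT1 at 1.13 is the highest point, and the ATF4 list has the lowest median, −0.23.

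Genes of DNA replication and markers of other cell types were read beside these values. Of 17 S phase genes, all tested, 2 were called, where 5.10% of all genes tested were. PCNA rose (87.0 to 140.6 FPKM, limma adjusted p = 0.0208) and SLBP fell (66.9 to 46.0 FPKM, limma adjusted p = 0.0443). With the replicate block 3 of the 17 were called, where 12.5% of all genes tested were. The added gene was MCM2 (limma adjusted p = 0.0359, or 0.142 without the block). The summed level of the 17 ranged from 863.4 to 961.9 FPKM in shNC and from 773.6 to 968.0 FPKM in shACAT2. The PCNA and SLBP calls were lost when any 1 of the shNC libraries or shACAT2-2 was left out, and that of SLBP also without shACAT2-3 (limma adjusted p up to 0.136 and 0.193). The 4 epithelial markers EPCAM, KRT8, KRT18 and KRT19 stayed at or below 0.785 FPKM in every library, although the labels give a gastric cancer line. KRT18 and KRT19 were at 0 in all shNC libraries. The mesenchymal marker VIM ranged from 245.7 to 292.4 FPKM in shNC and from 340.5 to 461.1 FPKM in shACAT2 (limma adjusted p = 0.0634, or 0.0265 with the replicate block). COL1A1, COL3A1 and ACTA2, which mark fibroblasts or smooth muscle, summed to between 263.4 and 303.2 FPKM in shNC and between 386.4 and 493.4 FPKM in shACAT2. Of these 3, COL1A1 rose from 61.0 to 121.0 FPKM (limma adjusted p = 0.0136, or up to 0.0983 in other settings) and ACTA2 from 3.77 to 16.3 FPKM (limma adjusted p = 0.00347), and COL3A1 was called with the replicate block alone (limma adjusted p = 0.0345, or 0.0916 without it). The COL1A1 call too was lost when any 1 of the shNC libraries or shACAT2-2 was left out. The markers PTPRC, CD3E, LYZ, PECAM1 and ALB of leukocytes, endothelium and liver were at or below 0.187 FPKM and summed to at most 0.488 FPKM in a library. Of all 13 cell type markers, 4 passed the filter on level (VIM, COL1A1, COL3A1 and ACTA2). None of the 4 had overlapping groups, where 30.7% of all genes tested had groups apart. Limma called 2 of the 4, against 5.10% of all genes tested, and with the replicate block all 4, against 12.5%. The part of the mesenchymal genes in the rise of PSAT1 was not tested.

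As a description over the 6 libraries, the genes most like PSAT1 were sought among 4510 genes averaging 10 FPKM or more. SFRP4 and DKK1, secreted regulators of Wnt signalling, had Pearson correlations of 0.999 each with PSAT1 on the log2(FPKM + 1) scale, and ZFP36L2, an RNA-binding protein, had 0.998. Their mean levels went from 8.82 to 29.7, from 7.60 to 32.0 and from 33.1 to 45.0 FPKM. All 3 share with PSAT1 the 6 libraries and the split between the groups, on which such a correlation mainly rests.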

How the data were processed

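RNA-sequencing libraries of HGC-27 cells, 3 shNC and 3 shACAT2, were grouped by their labels. The authors deposited FPKM values for 58735 genes. The submitters' processing notes name HISAT2 (2.0.5), featureCounts (1.5.0-p3), DESeq2 (1.20.0) and hg38, without roles, and the strand setting is not given in the sources used here. Gene lengths of the 9 enzymes equalled the exon unions of GENCODE 29. Fragments were read back from FPKM and gene length, and 100% of values were whole within 0.05. The FPKM denominator was not the sum of fragments on genes, so library-total scaling was tried.

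Genes whose mean reached 1 FPKM in shNC or in shACAT2 were tested with limma (3.58.1, R 4.3.3, trended variances) on log2(FPKM + 1). Python 3.11.15 was used otherwise. The script was tested on simulated data. Alternatives were 3 other scalings, no filter, a minimum of 10 fragments per library, a pseudocount of 0.1, limma-voom on fragments, the replicate block, shNC-2 and shNC-3 averaged, and each library left out.

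Same-numbered libraries deviated together from their group means (correlations 0.445, 0.126 and 0.171, each above 0.1), so a replicate block was run as an alternative. These correlations are not independent of one another, because deviations from a group mean cancel out within the group. The main limma test and the permutation tests used no pairing, and the blocked fit is given where it changed a call or a count. The labels do not say what a number marks. Libraries of unlike number gave 0.198 (shNC-2 with shACAT2-3) and 0.141 (shNC-3 with shACAT2-2), both above the 0.126 of shNC-2 with shACAT2-2. Pairing by number is therefore uncertain, and so are p-values from the blocked fit.

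Named were the 9 enzymes, ACAT2, ATF4, called genes of the other lists, copies named after an enzyme, and the 3 genes most like PSAT1. SFXN1, SFXN2, MCM2, genes under the filter, genes sharing exons and marker genes were added after their values were seen. Members and lists were chosen with earlier results of these data known.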

Additional observations from a re-analysis of the deposited data

How the results depend on the processing

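All counts are of limma calls at adjusted p below 0.05. Of all genes tested 706 were called, against 209 with no filter on level, 1727 with the replicate block, 83 when the mean of shNC-2 and shNC-3 stood for both, and 63 to 862 on leaving out 1 library. Of the 9 enzymes 1 was called, against 2 with the block, 0 with the average (1 at an unadjusted p below 0.05) and 0 to 2 with 1 library left out, the 0 being without shNC-3 (1 unadjusted). Of the pathway genes 5 were called, against 10 with library-total scaling, 1 with no filter, 13 with the block, 0 with the average (16 unadjusted) and 0 to 10 with 1 library left out, the 0 being without shNC-2, shNC-3 or shACAT2-2 (16, 15 and 19 unadjusted). ACAT2 kept a log2 fold change of −1.07 to −0.94 with 1 library left out. Estimates near 0 changed sign, the cause of which was not tested: SHMT2 ranged from −0.31 to 0.073 with 1 library left out, MTHFD1L from −0.073 to 0.074, and ALDH1L2 from −0.086 to 0.19. MTHFD1L was −0.045 with library-total scaling, −0.012 with median-of-ratios scaling and −0.029 with the average, and ALDH1L2 was −0.0094 with library-total scaling. Among the enzymes and ACAT2, the block changed the call of PHGDH alone. With 3 libraries a group, an enzyme whose 95% interval holds 0 may differ by as much as that interval allows.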
